A study of Capra aegagrus with 10 samples.

Results

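Control lentiviruses of 2 kinds, called Lv3NC and Lv5NC in the labels, were compared in goat mammary gland cells by the small RNA they left, with 2 libraries for each virus. The members of the comparison were the known goat miRNAs (names starting with chi-) and the predicted miRNAs (names starting with novel_mir) that reached 5 CPM (read counts scaled to a common total of miRNA reads) in at least 2 of these 4 libraries. This rule used CPM before TMM scaling, and all other levels are CPM after it. They numbered 386 of the 1403 miRNAs in the deposited table, and comprised 200 known and 186 predicted miRNAs. The comparison asks how far cells that received one control virus differed from cells that received the other, with neither manipulation of the long noncoding RNA lncRNA55666 in it.

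The series holds 10 small RNA libraries from mammary gland cells of the Lanshan dairy goat, grown in 3D culture. The labels give 5 groups of 2 libraries, which are Blank, Lv5NC, OV55666 (overexpression), Lv3NC and KD553 (knockdown). In the study's design text the 5NC control is named next to overexpression and the 3NC control next to knockdown. Neither control is said to carry lncRNA55666 sequence, and no source used here gives the vector, the insert, the viral dose or the time of exposure. The labels do not say whether the 2 libraries of a group came from separate cultures, so the p-values measure the spread between these libraries, which may be technical.

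A miRNA is a short RNA cut from a hairpin precursor and loaded into an Argonaute protein, which it guides to complementary messages that are then repressed. The names 5p and 3p mark the 2 arms of the hairpin, and usually 1 arm is kept while the other is degraded. Lentiviral control vectors integrate into the genome and often express a marker or a hairpin with no intended target, so they are used to hold constant what transduction itself does. A predicted miRNA is a hairpin that a program proposed from the reads, and its identity as a miRNA rests on that prediction.

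The libraries of the control viruses held 19174206 and 20295923 reads for Lv5NC and 20393919 and 19345179 for Lv3NC. Of these, 3108495 and 5231656 reads lay on miRNAs in Lv5NC, against 5949222 and 6088975 in Lv3NC. Total depth was therefore alike, while Lv5NC replicate 1 had the fewest miRNA reads of the 4. RF identifiers, in the form the Rfam database uses for families of structured RNA, took 4.81% and 7.72% of reads in Lv5NC and 11.2% and 15.98% in Lv3NC. Reads assigned only to genome regions (intergenic, intron or exon) made up 79.0% and 66.5% in Lv5NC and 59.6% and 52.5% in Lv3NC. These classes separated the viruses without overlap, and their part in the miRNA differences was not tested.

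**Figure D1:**
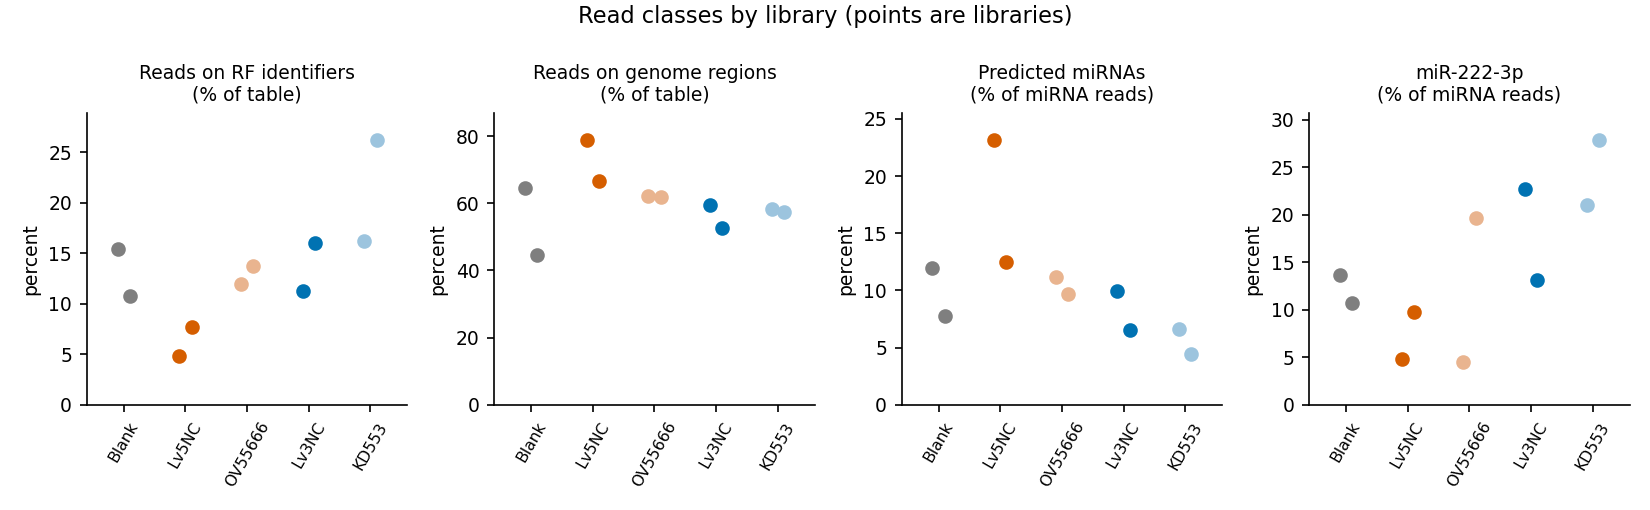
Share of each library's reads on RF identifiers and on genome regions, as a percentage of all reads in the table, and share of miRNA reads on predicted miRNAs and on miR-222-3p. Each point is a library and the x axis gives the group; the Lv5NC libraries, at 4.81% and 7.72%, had the lowest RF shares of the 10.

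Between the viruses 1 of 386 members passed an adjusted p of 0.05 (0.259% of the members, limma with Benjamini-Hochberg adjustment). That member was miR-328-3p, which was higher in Lv3NC. At an unadjusted p of 0.05, 16 members were higher in Lv3NC (4.15%) and 19 were lower (4.92%). The differences of 236 members were smaller than 1 on the log2 scale, and those of 65 exceeded 2. The median standard error of a log2 fold change was 0.75. In tests on simulated data made from these libraries, the fit recovered 36% of 4-fold and 71% of 16-fold changes. Of the largest changes simulated, it recovered 79%. The count of 1 therefore does not bound the number of differences, whether small or large. The same simulations, in which 40 of 386 miRNAs were changed, gave 1.6 false calls each. The count of 1 is thus no larger than the number of false calls seen there.

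Libraries of the same virus were not uniformly more alike than libraries of different viruses. As a description over the 386 members, Pearson's r of log2 levels was 0.907 between the Lv3NC libraries and 0.951 between the Lv5NC libraries. The 4 pairs that crossed viruses gave 0.847 to 0.931. The levels of the members span a wide range in every library, which raises every r. The median absolute log2 difference was 0.87 between the Lv3NC libraries, 0.59 between the Lv5NC libraries and 0.58 to 1.15 across viruses.

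miR-328-3p, which in human cells is reported to repress the transporter gene ABCG2, had 65497 and 25623 reads in the Lv3NC libraries and 6 and 2 reads in the Lv5NC libraries. In CPM these were 13288 and 4697 against 1.64 and 0.330. The Blank libraries also had 10 reads each, at 1.79 and 1.01 CPM, so Lv5NC sat with the untreated cells. The OV55666 libraries reached 9327 and 19858 CPM and the KD553 libraries 7802 and 2954 CPM, so Lv3NC sat with both manipulated groups. The log2 fold change was 12.04 (standard error 0.71, limma adjusted p = 2.32e-05). The ratio of pooled, scaled reads was 10663, with a 95% exact interval of 5412 to 24700 that covers counting error only.

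The level of miR-328-3p tended to run against the number of reads that the table does not list, where that number could be computed. The deposited TPM columns imply a library total, and in some libraries this total exceeded the sum of the listed reads. The excess was 23424 and 43510 reads in Lv5NC and 15216 and 59485 in Blank, where miR-328-3p was near 0, and 1 and 1 in KD553, where it was high. On the miRNA scale the Lv5NC excess equals 6398 and 7179 CPM, inside the range of miR-328-3p in the other libraries. OV55666 replicate 2 departed from this pattern, with an excess of 21120 reads and the highest level of miR-328-3p. The excess could not be computed for Lv3NC, whose TPM columns were not used. With the excess of the other libraries counted as miR-328-3p reads and none added to Lv3NC, the log2 fold change was 0.22 (limma adjusted p = 0.917) and no member passed. That value follows from adding reads to 1 side of the comparison, and it shows the size of the excess, not what the reads are. The identity of the excess reads was not tested.

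**Figure D2:**
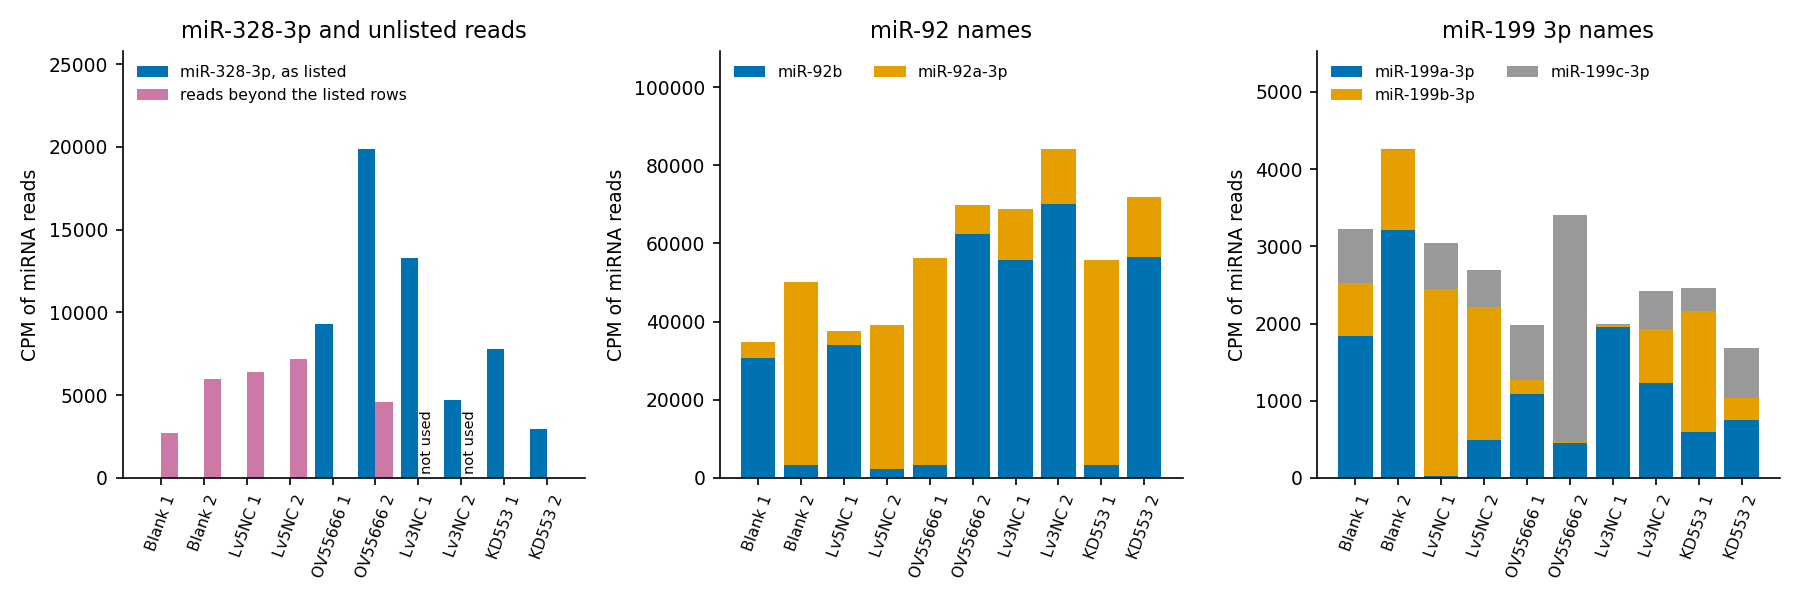
Levels in CPM of miRNA reads in each of the 10 libraries for miR-328-3p beside the reads beyond the listed identifiers, for the 2 miR-92 names and for the 3 names of the miR-199 3p arm, with names stacked within a library. miR-328-3p stands at 13288 and 4697 CPM in Lv3NC and at 1.64 and 0.330 CPM in Lv5NC, and the names within the other panels replace each other from library to library.

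Without regard to a test, both Lv3NC libraries lay above both Lv5NC libraries for 75 members (19.4%), and both Lv5NC libraries lay above both Lv3NC libraries for 27.5%. The direction depended on the class of miRNA. Of the 200 known members 93 were lower in Lv3NC and the others higher, with a median log2 fold change of 0.06. Of the 186 predicted members 52 were higher and the others lower, with a median of -0.69. The median over all members was -0.23. Scaling to the miRNA total without TMM moved the medians to -0.64 for all, -0.36 for known and -1.09 for predicted members, and the share of members higher in Lv3NC from 41.2% to 24.9%. Scaling to all reads in the table moved the medians to -0.08, 0.18 and -0.44. Some of these directions were fixed by the choice of members, since 26 predicted and 5 known members reached 5 CPM in the Lv5NC libraries alone, and 3 of each class in the Lv3NC libraries alone. Among members at 5 CPM in all 4 libraries the medians were 0.11 for 171 known and -0.22 for 84 predicted members. With scaling to the miRNA total these became -0.33 and -0.63, and with scaling to all reads 0.22 and -0.066, so the sign of the known median depended on the scaling.

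**Figure D3:**
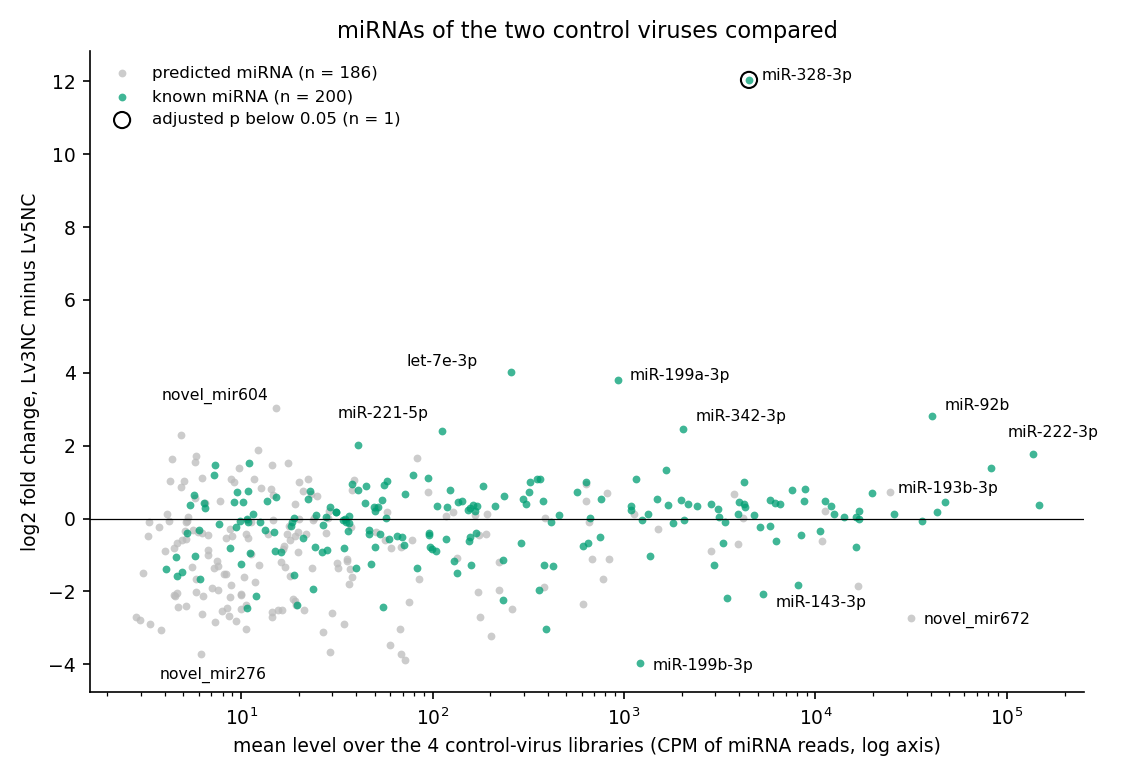
Log2 fold change (Lv3NC minus Lv5NC) of each of the 386 members against its mean level over the 4 libraries in CPM, on a log axis, with known and predicted miRNAs coloured apart. The circled point, miR-328-3p at 12.04, is the member past the threshold, and predicted miRNAs lie mostly under 0.

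After miR-328-3p, the smallest p belonged to miR-342-3p, whose gene lies in an intron of EVL. It stood at 2673 and 4124 CPM in Lv3NC and at 420 and 884 CPM in Lv5NC. The log2 fold change was 2.44 (standard error 0.46, limma adjusted p = 0.105), which did not pass. Both Lv5NC libraries lay below all other 8 libraries, whose levels ran from 1919 to 5712 CPM, and the Blank libraries had 2385 and 2609 CPM. The other arm, miR-342-5p, had 291 and 591 CPM in Lv3NC and 200 and 209 CPM in Lv5NC, a log2 fold change of 1.02 (standard error 0.45). It too was lower in both Lv5NC libraries than in all other 8, by a narrower margin, since a Blank library had 224 CPM.

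miR-221 and miR-222 come from 1 cluster and repress the cell cycle inhibitor CDKN1B in human cells. miR-222-3p made up 22.7% and 13.2% of miRNA reads in Lv3NC and 4.79% and 9.72% in Lv5NC. Its scaled levels were 273636 and 147164 CPM against 40655 and 83899 CPM, a log2 fold change of 1.78 (standard error 0.73, limma adjusted p = 0.453). The 2 viruses did not overlap, but the Lv5NC levels were close to an OV55666 library at 40144 CPM and a Blank library at 93834 CPM. miR-221-5p had 131 and 249 CPM in Lv3NC and 25.9 and 42.2 CPM in Lv5NC, with a log2 fold change of 2.41 (standard error 0.56, adjusted p = 0.235). For this arm both Lv5NC libraries were below all other 8, of which the lowest had 101 CPM. The more abundant arm, miR-221-3p, had 3357 and 3044 CPM against 1900 and 3151 CPM, and these ranges overlapped. In a fit with the RF share as a term, the log2 fold change was 1.48 for miR-221-5p and 1.37 for miR-222-3p.

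miR-193b-3p, which represses cyclin D1 and MCL1 in human cells, was among the 5 most abundant members. It stood at 164286 and 78951 CPM in Lv3NC and at 39213 and 49003 CPM in Lv5NC, a log2 fold change of 1.38 (standard error 0.45, limma adjusted p = 0.453). Both Lv3NC libraries lay above all other 8 libraries, whose highest level was 58510 CPM, and the Blank libraries had 25838 and 27777 CPM. The 5 members of highest mean level over the 4 libraries held 52.2% and 51.8% of miRNA reads in Lv3NC and 33.4% and 39.0% in Lv5NC. This set was the same for every library, so it need not hold a given library's own most abundant miRNAs. The other very abundant members differed less. let-7b-5p had 110485 and 230620 CPM in Lv3NC, a range that enclosed the 122812 and 125041 CPM of Lv5NC. let-7a-5p and miR-99b-5p had log2 fold changes of 0.17 and 0.46, with standard errors of 0.36 and 0.38, and neither passed.

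Several further known members had lower levels in both Lv5NC libraries without passing. miR-204-5p, encoded in an intron of TRPM3, had 1477 and 1611 CPM in Lv3NC and 530 and 1006 CPM in Lv5NC. miR-30a-5p, a repressor of the autophagy gene BECN1 in human cells, had 2041 and 2533 CPM against 524 and 1563 CPM. In both, Lv5NC replicate 1 was the lowest library, and the limma adjusted p was 0.453. Without that library the log2 fold change of miR-204-5p fell from 1.08 to 0.62, and that of miR-30a-5p from 1.33 to 0.54. miR-155-5p, induced in activated immune cells, had 642 and 1022 CPM against 276 and 597 CPM, while the Blank libraries reached 1089 and 1220 CPM. miR-224-5p, from an intron of GABRE, had 340 and 659 CPM against 193.1 and 259 CPM. miR-29c-5p and miR-29b-5p, passenger arms of a family that represses collagen genes, had log2 fold changes of 1.18 and 0.93. That of miR-29c-5p was 0.51 without Lv5NC replicate 2. The 3p arms among the members ran the other way, with miR-29b-3p at -0.92 and miR-29a-3p at -0.55 when scaled to all reads. All miR-29 names summed to 1918 and 3515 CPM in Lv3NC and 2903 and 5433 CPM in Lv5NC, which overlapped. let-7d-3p and let-7i-5p had log2 fold changes of 0.99 and 0.77, and in each the lower Lv3NC library stood above the higher Lv5NC library.

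The known members lower in Lv3NC included miR-27a-5p, whose precursor also gives miR-27a-3p, a repressor of the adipogenic factor PPARG in human and mouse cells. It had 283 and 66.2 CPM in Lv3NC and 447 and 640 CPM in Lv5NC, a log2 fold change of -1.96 (standard error 0.77, limma adjusted p = 0.453), and both Lv5NC libraries were above all other 8. It was -0.83 without Lv3NC replicate 2, and a fit that included the RF share gave -0.65. miR-143-3p, abundant in smooth muscle and fibroblasts, had 4860 and 707 CPM against 7267 and 8450 CPM. Its log2 fold change of -2.08 was -0.61 without Lv3NC replicate 2, and it was -0.45 in the fit with the RF share as a term. miR-140-3p, best known from cartilage, had 114 and 50.8 CPM against 134.1 and 222 CPM, and its log2 fold change of -1.17 became -0.52 and -0.48 under the same changes. In each of these 3 members Lv3NC replicate 2 was the lowest of the 4 libraries. In all 3 the Lv3NC replicates were further apart than the nearer libraries of the 2 viruses.

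**Figure D4:**
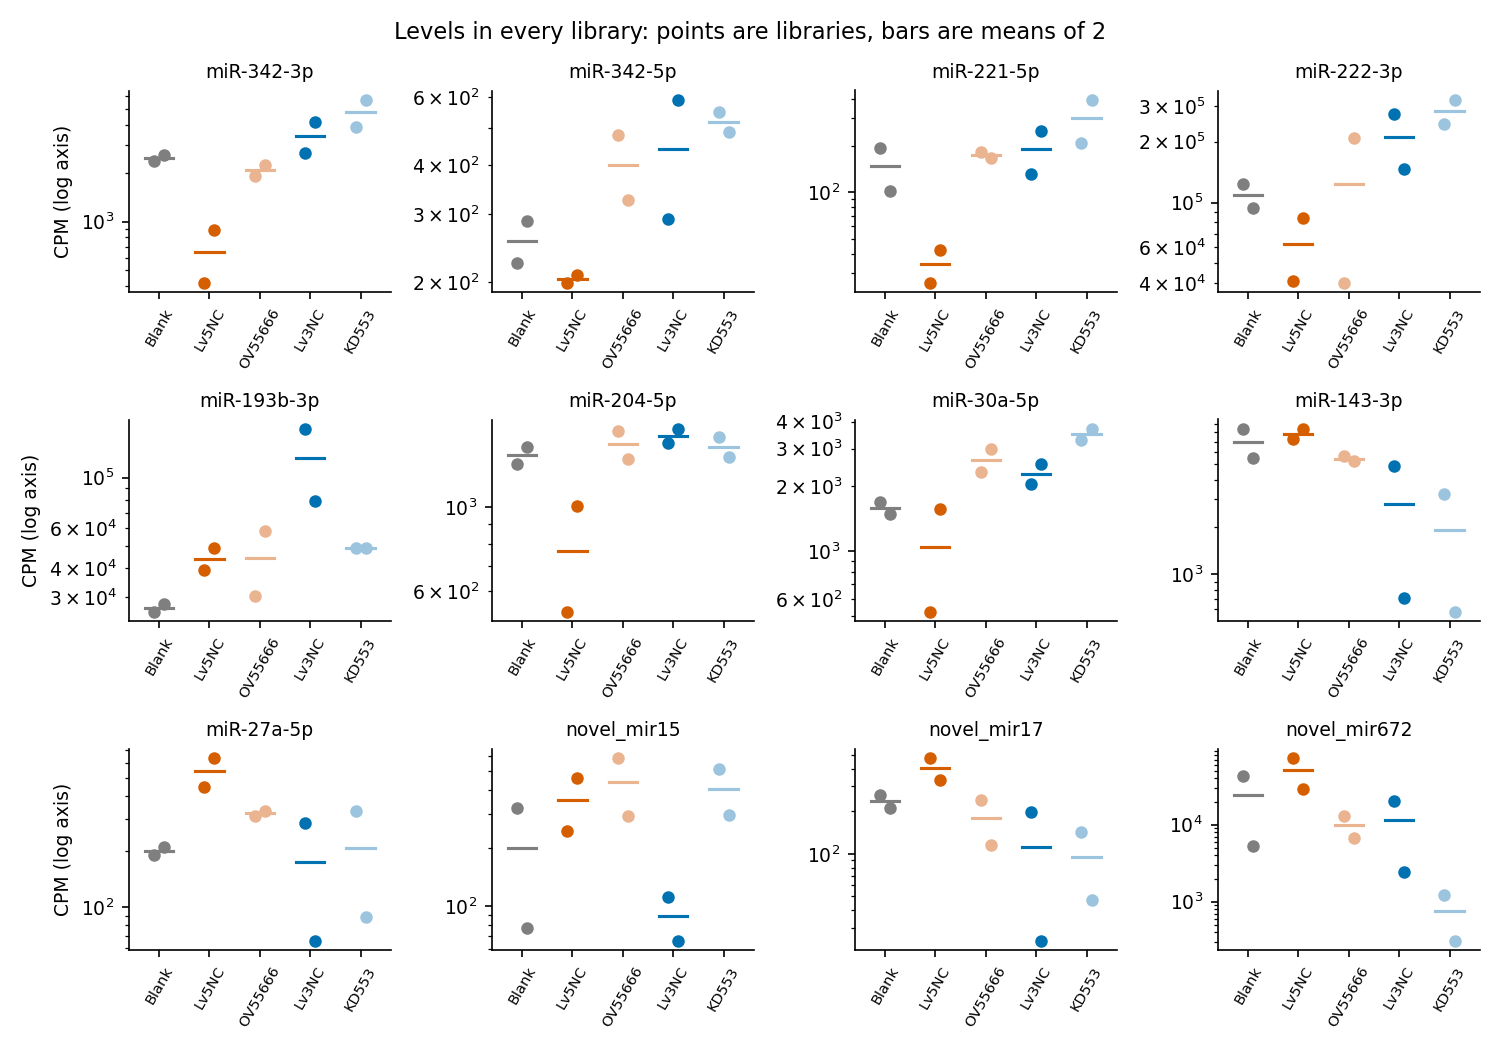
Levels in CPM, on a log axis, of 12 named members in all 10 libraries; points are libraries, bars are means of 2 and the x axis gives the group. miR-342-3p and miR-221-5p are lowest in the Lv5NC libraries, miR-193b-3p is highest in the Lv3NC libraries, and miR-27a-5p is highest in the Lv5NC libraries.

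Some large differences lay between names that stand for nearly the same molecule. miR-92b, of the family that includes a member of the MYC-driven miR-17-92 cluster, had 55846 and 70126 CPM in Lv3NC and 33970 and 2318 CPM in Lv5NC. miR-92a-3p ran the other way in the last library, with 13019 and 13964 CPM in Lv3NC and 3740 and 36731 CPM in Lv5NC. Summed, the 2 names gave 68865 and 84090 CPM against 37711 and 39049 CPM, so the large gap between the Lv5NC libraries closed. The log2 fold change of the sum was 1.00 (standard error 0.33, limma adjusted p = 0.431), against 2.82 (standard error 1.95) for miR-92b alone.

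The 3p arm of miR-199, a stromal miRNA, was listed under 3 names. miR-199a-3p had 1960 and 1228 CPM in Lv3NC and 24.3 and 487.4 CPM in Lv5NC, a log2 fold change of 3.80 (standard error 1.19, limma adjusted p = 0.453). miR-199b-3p had 23.1 and 702 CPM against 2424 and 1727 CPM, a log2 fold change of -3.97 (standard error 1.73). Their opposite directions nearly cancelled, since the 3 names summed to 1990 and 2421 CPM in Lv3NC and 3043 and 2692 CPM in Lv5NC. The sum had a log2 fold change of -0.37 (standard error 0.40, adjusted p = 0.658). Without Lv5NC replicate 2, miR-199a-3p alone passed, with a log2 fold change of 5.53 and an adjusted p of 0.00934.

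A further case rested on 1 library. let-7e-3p, a passenger arm of the let-7 family, had 329.1 and 385 CPM in Lv3NC and 0.546 and 309 CPM in Lv5NC. The level in Lv5NC replicate 1 stood for 2 reads, whereas the other 9 libraries held 253 to 472 CPM. The log2 fold change was 4.03 (standard error 1.95, limma adjusted p = 0.453). It was 0.20 without Lv5NC replicate 1 and 7.66 (adjusted p = 0.000267) without Lv5NC replicate 2, so the call turned on which Lv5NC library was kept.

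Predicted miRNAs took 23.2% and 12.5% of the miRNA reads in Lv5NC and 9.97% and 6.57% in Lv3NC. More of them were listed in Lv5NC, with 405 and 353 identifiers against 295 and 268, although the Lv3NC libraries had more miRNA reads. Known miRNAs showed no such split, with 293 and 307 listed in Lv5NC and 312 and 277 in Lv3NC. A predicted miRNA was never listed with fewer than 10 reads in a library, whereas known miRNAs were listed from 1 read. A missing predicted miRNA may thus hold up to 9 reads, and 10 reads equal 2.73 and 1.65 CPM in Lv5NC and 2.03 and 1.83 CPM in Lv3NC. Among the 84 predicted members at 5 CPM in all 4 libraries, 35 were higher and 49 lower in Lv3NC.

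The 3 most abundant predicted members were novel_mir672, novel_mir1 and novel_mir1121. novel_mir672 had 20450 and 2462 CPM in Lv3NC and 74335 and 29419 CPM in Lv5NC, a log2 fold change of -2.72 (standard error 1.28, limma adjusted p = 0.453). novel_mir1121 had 4239 and 10185 CPM against 36881 and 15444 CPM, a log2 fold change of -1.86 (standard error 0.99), and both its Lv5NC libraries were above all other 8. novel_mir1 ran the other way, with 37280 and 24300 CPM in Lv3NC and 17424 and 18984 CPM in Lv5NC and a log2 fold change of 0.73 (standard error 0.34). novel_mir6 had 1033 and 655.9 CPM against 450 and 403 CPM. novel_mir598 had the smallest p of the predicted members averaging at least 50 CPM, with 112 and 140.96 CPM against 33.3 and 45.9 CPM and an adjusted p of 0.267. In these 5 members the viruses did not overlap, and none passed. novel_mir672 was -1.11 without Lv3NC replicate 2 and -1.53 in the fit that included the RF share.

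Predicted members with lower levels in Lv3NC often had their lowest level in Lv3NC replicate 2. novel_mir17 had 198 and 24.4 CPM in Lv3NC and 479 and 334 CPM in Lv5NC. novel_mir15 had 112 and 66.5 CPM against 247 and 460 CPM, and novel_mir16 had 166 and 106.9 CPM against 310 and 305 CPM. novel_mir196 had 28.4 and 1.83 CPM against 143.4 and 99.8 CPM, a log2 fold change of -3.72 (standard error 1.53, limma adjusted p = 0.453). novel_mir316, novel_mir231, novel_mir992 and novel_mir1205 had log2 fold changes of -1.89, -3.48, -3.22 and -3.87. novel_mir231 and novel_mir1205 were not listed in Lv3NC replicate 2, while their Lv3NC replicate 1 levels were 54.8 and 57.0 CPM. Most of these differences rested largely on that library, but that of novel_mir15 less so. Leaving it out gave -1.50 for novel_mir15 and -0.80 for novel_mir16, against -1.95 and -1.20 with all libraries. Without Lv3NC replicate 2 the log2 fold change was -0.93 for novel_mir17, -1.96 for novel_mir196, -0.58 for novel_mir316, -0.49 for novel_mir231, -0.68 for novel_mir992 and -0.86 for novel_mir1205. In the fit that included the RF share novel_mir196 was -0.89 and novel_mir992 -0.43.

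Of the predicted members, 5 were listed in both Lv5NC libraries and in neither Lv3NC library, and so became members through Lv5NC alone, which fixed their direction. They were novel_mir276, novel_mir795, novel_mir1259, novel_mir170 and novel_mir1123, with 17 to 87 reads per Lv5NC library. Set against 9 reads in each Lv3NC library, novel_mir276 was at least 7.42-fold lower in Lv3NC and novel_mir1259 at least 3.38-fold lower. novel_mir1259 was listed in none of the other 6 libraries. In the other direction novel_mir604 had 118 and 173 reads in Lv3NC against 10 and 14 in Lv5NC, and 1.51 and 2.17 CPM were its levels in the other 2 libraries that listed it. Its limma adjusted p was 0.344, and it was 0.0215 when each missing predicted value was read as 9. The log2 fold change was 3.02 in both fits. Its filled values lay outside the 4 libraries compared, so they changed the estimated spread and not the difference. These 6 members lie outside the rule for named miRNAs and were chosen after their values were seen.

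The control viruses were also placed among all 10 libraries. Both Lv5NC libraries were above all other 8 for 37 members (9.59%), of which 33 were predicted, and 8 of the 37 reached 5 CPM in all 4 control-virus libraries. They were below all other 8 for 16 members (4.15%), of which 13 were known, among them miR-342-3p, miR-221-5p, miR-204-5p, miR-155-5p and miR-191-5p, and all 16 reached 5 CPM in all 4. Both Lv3NC libraries were above all other 8 for 8 members (2.07%), 3 of them known, which were miR-193b-3p, miR-99b-3p and miR-1306-3p, and 6 of the 8 reached 5 CPM in all 4. They were below all other 8 for 15 members (3.89%), of which 14 were known, including miR-874-3p, miR-26b-5p, miR-29b-3p and miR-140-5p, and 8 of the 15 reached 5 CPM in all 4. The members that did not were admitted through libraries where they were high. Members named here beyond those already described were chosen after their values were seen. These orders carry no test, and the 5 groups differ in treatment as well as in read classes.

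Known miRNAs were also grouped by family and cluster, and no list held a member past the threshold. miR-221 and miR-222 had 3 of 3 members higher in Lv3NC and a median of 1.78. Over the 200 known members 53.5% were higher and the median was 0.06, and over all members it was -0.23. The 4 members of the p53-linked miR-34 and miR-449 family were also higher in Lv3NC, with a median of 0.37 that became -0.07 when scaled to the miRNA total. The let-7 family, which restrains proliferation in many tissues, had 11 of 15 members higher and a median of 0.33, which became -0.11 under that scaling. The summed level of let-7 did not separate the viruses. It was 173533 and 322784 CPM in Lv3NC, a range that enclosed the 181585 and 189959 CPM of Lv5NC. The lists of miR-15 with miR-16 and miR-424 (5 of 7 higher, median 0.49), miR-99 with miR-100 (3 of 5, 0.46) and miR-10 with miR-196 (3 of 4, 0.55) kept a positive median under each scaling.

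With TMM scaling, fewer lists had a lower median in Lv3NC than a higher one. When scaled to the miRNA total, most lists had a lower median in Lv3NC. miR-23, miR-24 and miR-27, which share paralogous clusters, had 6 of 8 members lower and a median of -0.74, led by miR-27a-3p with 2492 and 564 CPM in Lv3NC and 4543 and 6260 CPM in Lv5NC. miR-24-3p had 9060 and 974.99 CPM against 15296 and 7125 CPM, which overlapped, and miR-23a did not differ by more than its error at 0.04 (standard error 0.35). Of the innate-response miRNAs, miR-146a, which restrains Toll-like receptor signalling through TRAF6 and IRAK1, had 4.67 and 44.0 CPM in Lv3NC and 98.1 and 73.9 CPM in Lv5NC. miR-146b-5p was low in all 4 libraries, with 1.62 and 1.83 CPM against 8.19 and 4.62 CPM, while miR-155-5p ran the other way. Their median over 3 members, -1.40, was the value of miR-146b-5p itself and was negative under each scaling. miR-146b-5p reached 5 CPM before TMM in the Lv5NC libraries alone, which fixed its direction.

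In most of the remaining families members lay on both sides of 0. The miR-17-92 cluster and its paralogs, which promote proliferation, had 8 members higher and 7 lower, with a median of 0.03. miR-30 had 4 higher and 2 lower (0.06), miR-29 had 2 and 2 (0.12), and miR-181 had 2 and 1 (0.30). The medians of these 4 lists became negative when scaled to the miRNA total, as did that of miR-26, miR-103 and miR-107 (3 and 2, 0.41) and that of the miR-532 cluster (3 and 3, 0.16). miR-125 (2 and 2, -0.19), miR-193 with miR-365 (2 and 2, -0.20) and miR-148 with miR-130 (2 and 3, -0.31) had medians that were negative under each scaling. The reference-type miRNAs miR-191, miR-423, miR-425 and miR-361 had 3 higher and 4 lower and a median of -0.02, which became positive when scaled to all reads. miR-21-5p had 6853 and 11993 CPM against 12933 and 10318 CPM, a log2 fold change of -0.35 (standard error 0.85).

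**Figure D5:**
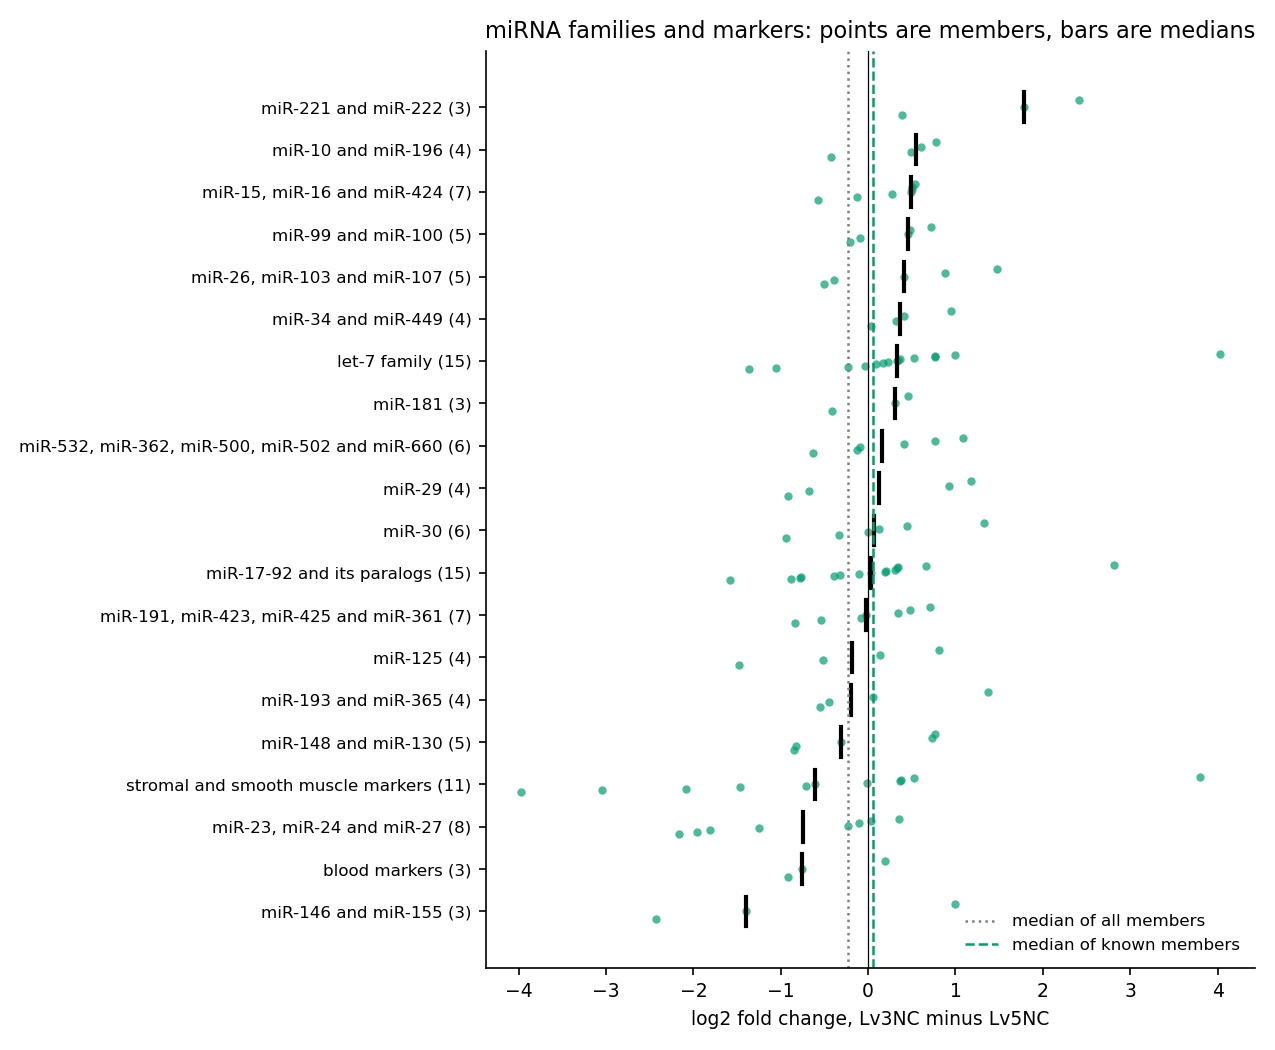
Log2 fold change (Lv3NC minus Lv5NC, x axis) of the members of each list with at least 3 members (y axis, number in parentheses); points are members and black bars are medians. The dotted line is the median of all members at -0.23 and the dashed line that of known members at 0.06, and miR-221 with miR-222 has the highest median at 1.78.

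The labelled tissue was checked against cell type markers. Of 8 epithelial miRNAs in the table (the miR-200 family and the miR-183 cluster) 1 was a member, miR-200c, at 15.2 and 6.23 CPM in Lv3NC and 3.82 and 3.63 CPM in Lv5NC. miR-200c reached 5 CPM before TMM in the Lv3NC libraries alone, which fixed its direction. The whole epithelial list summed to 29.4 and 10.1 CPM in Lv3NC and to 11.2 and 10.6 CPM in Lv5NC. Stromal and smooth muscle markers (miR-199, miR-214, miR-143 and miR-145) were all members, and summed to 15495 and 11529 CPM in Lv3NC and 18605 and 23891 CPM in Lv5NC. The marker level in the libraries was thus mostly stromal, and the stromal sum was lower in both Lv3NC libraries. Of its 11 members, which include the miR-199 names that replace each other, 7 were lower and the median was -0.60. In RNA from a mixed culture, fewer cells of a type and less RNA per cell cannot be told apart. Blood markers summed to 1089 and 180 CPM in Lv3NC and to 898 and 559 CPM in Lv5NC, with 1 of 3 members higher. The endothelial marker miR-126 had 1 member arm, at 0.33, and striated muscle markers had 2 members, on either side of 0. Of 40 miRNAs from the imprinted DLK1-DIO3 cluster in the table, 2 were members. The part of these markers in the differences between the viruses was not tested.

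The 2 arms of a precursor were compared for 58 precursors with both arms among the members. In 29 the arms had the same direction and in 29 opposite directions. Both arms lay above in both Lv3NC libraries for miR-342, miR-7 and miR-99b. Both arms lay above in both Lv5NC libraries for miR-27a, miR-140, miR-106b, miR-214, miR-331, miR-129 and miR-22. These were 3 and 7 of the 58 precursors. All of these arms are known miRNAs. Of the 200 known members taken singly, 50 lay above in both Lv3NC libraries and 42 in both Lv5NC libraries. Over all members, predicted ones included, the shares were 19.4% and 27.5%. Rates for single members do not give the rate for 2 arms together. miR-106b-5p and miR-331-5p averaged 4.64 and 5.73 CPM, near the 5 CPM of the member rule, so the choice of members may have set their order. miR-204 had its arms on opposite sides, with miR-204-3p at 71.4 and 27.5 CPM in Lv3NC and 121 and 111 CPM in Lv5NC. The 3p arm thus lay above in both Lv5NC libraries and the 5p arm in both Lv3NC libraries.

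At the edge of the member rule, the lowest members by their second-highest level among the 4 libraries were novel_mir357 and novel_mir976 at 5.04 CPM and novel_mir660 at 5.09 CPM. Just outside it were novel_mir1307, novel_mir728 and miR-211, each at 4.97 CPM.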

How the data were processed

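Small RNA was sequenced from 10 libraries, and the authors deposited 1 table of read counts and TPM values for 2233 identifiers. Per the file headers, the columns marked Count give read counts, which are whole numbers with no normalization; 50.7% of their cells hold a missing mark, so they were recorded as another unit than plain counts and no count model was used. Missing marks were read as 0. The deposited TPM columns served only to obtain library totals, and the 2 TPM columns of Lv3NC were not used, since both carry the same header. The sources used here name no aligner, miRNA database or genome build, and mature sequences were not used here.

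Counts were scaled to CPM of miRNA reads with TMM factors (30% trim on ratios, 5% on levels). A model of log2(CPM + 1) was fitted in R 4.3.3 by limma 3.58.1 and statmod 1.5.0. This scale understates changes of low miRNAs. The model had 5 group means over all 10 libraries (5 residual degrees of freedom), an abundance trend and robust moderation. Tests were two-sided and adjusted by Benjamini-Hochberg over 386 members, with a threshold of 0.05. With 2 libraries against 2, an exact permutation test cannot go below p = 0.333. Named miRNAs are those past the threshold, members averaging at least 50 CPM taken in order of p until 30 were named, the 5 most abundant, and the 5 largest differences in each direction among those with at least 50 CPM in both libraries of a virus. The members, lists and rule were chosen with earlier results of these data known. On simulated data (386 miRNAs, 40 of them changed, 10 simulations) the fit made 1.6 false calls per simulation. Alternatives covered the pseudocount, filter, scaling, covariates, moderation, summed names and each library left out.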

Additional observations from a re-analysis of the deposited data

How the results depend on the processing

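The count of 1 member past the threshold was 4 (3 higher and 1 lower in Lv3NC) when scaled to all reads in the table, 2 when missing predicted values were read as 9, and 2 with the replicate number as a block. The replicate block brought miR-342-3p past the threshold (limma adjusted p = 0.0403). Same-numbered libraries are not said to share a culture, and the correlation of their deviations ran from -0.0024 to 0.34 between groups. It was above 0.1 in 9 of 10 pairs of groups and 0.24 between the control viruses. Since 1 pair was not above 0.1, the numbers were not taken as pairs. With the block, 67 members had an unadjusted p under 0.05 against 35 without it. The count was 0 with voom weights, where miR-328-3p had a log2 fold change of 13.28 (adjusted p = 0.106), and 0 with the unlisted reads given to miR-328-3p in all groups but Lv3NC, whose log2 fold change was then 0.22 (adjusted p = 0.917). With 1 library left out in turn the count ranged from 1 to 3, and was 3 without Lv5NC replicate 2; the log2 fold change of miR-328-3p ranged from 11.26 to 12.93. In the fits that left a virus with 1 library, that library was assumed to vary like the other groups.

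Of 780 recomputed values of named miRNAs, 764 kept their direction and side of the threshold, 5 passed newly, 2 no longer passed and 9 changed sign, of which none was past the threshold in the comparison as reported. miR-199a-3p was -0.27 with near-identical names summed and -0.37 with the miR-92 and miR-199 names summed. Scaled to the miRNA total, let-7b-5p was -0.074 and let-7a-5p -0.27. With 1 library left out in turn, let-7b-5p ranged from -0.082 (without Lv3NC replicate 2) to 0.90, miR-99b-5p from -0.081 (without Lv5NC replicate 2) to 0.72 and let-7a-5p from -0.18 (without Lv5NC replicate 2) to 0.50. let-7b-5p was also -0.047 without Lv5NC replicate 2, and let-7a-5p -0.079 without Lv3NC replicate 2. The values that passed newly included novel_mir196 at -3.10 (adjusted p = 0.0427) and miR-199a-3p at 3.82 (adjusted p = 0.0112), both scaled to all reads. The causes were not tested. Depth limits low members, since 1 CPM stood for few reads and counts under 10 of predicted miRNAs are not listed.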
